A study of Saccharomyces cerevisiae with 36 samples.

Results

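Wild-type (WT) Saccharomyces cerevisiae cells were followed between 15 and 20 min of a second heat shock, the last 5 min for which RNA was sequenced. The samples were chosen by their labels alone: 3 WT memory samples at 15 min and 3 at 20 min, 6 of the 36 samples of the series. All cells carried the BY4741 background (MATa his3Δ1 leu2Δ0 met15Δ0 ura3Δ0) and grew exponentially in rich medium. Memory cells received a first heat shock of 20 min at 39 °C and recovered for 60 min at 30 °C. They were then heated a second time, for up to 20 min at 39 °C. No-memory cells received medium at 30 °C in place of the first shock. They met heat once, in the shock that was sampled, also at 39 °C. The heat shocks were started by adding medium at 51 °C. The mip6Δ strain lacks MIP6, which encodes an RNA-binding protein, and its deletion is marked with KANMX4. RNA was taken at 0, 15 and 20 min of the sampled shock, in 3 replicates for each of the 12 groups, from total RNA of whole cultures. The question asked here was which transcripts moved from 15 to 20 min, and in which direction relative to the shock that preceded it.

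Heat acts on the yeast transcriptome through a few well known regulators. Hsf1 binds heat shock elements and drives chaperone genes, whereas Msn2 and Msn4 bind stress response elements (STRE) and drive genes for trehalose, glycogen, detoxification and reserve carbon use. At the same time, genes for ribosomal proteins and ribosome assembly are repressed as growth slows, and are known to come back as cells adapt. Sequencing of mRNA gives relative abundance, so a change of a transcript's share cannot be told apart from a change in the total mRNA of the cell.

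The 6 libraries held 29211978 to 42155147 assigned reads, against 28270651 to 42233578 over all 36. The deposited normalized counts of the 6 samples summed to 29677210 to 30877677. The a-specific pheromone receptor gene STE2 stood at 370 to 519 CPM (read counts scaled to equal library totals) and the α-factor gene MF(ALPHA)1 at 0.502 to 1.04. The a-specific genes STE6, BAR1 and MFA2 stood at 212 to 318, 156 to 240 and 99.3 to 147. AGA2 and MFA1, also a-specific, stood at 26.9 to 38.2 and 24.4 to 35.2. Of the α-specific genes, MF(ALPHA)2 stood at 0.151 to 0.287, STE3 at 14.9 to 17.6 and SAG1 at 38 to 43.3. SAG1 thus stood above MFA1, and not all markers separated the mating types. MIP6 had 134 to 626 reads in the WT libraries and 0 in the mip6Δ libraries. HIS3, of which his3Δ1 deletes only a part, stood at 44.9 to 77 CPM. Ribosomal RNA took 0.459% to 1.93% of reads at 15 min and 0.502% to 0.653% at 20 min. One library of the same cells stood apart before the shock: at 0 min, the 17 Hsf1-dependent chaperone genes summed to 776737 normalized counts in replicate 1, 272826 in replicate 2 and 159593 in replicate 3. That library enters the tests of 20 against 15 min only through the shared estimate of the spread, as does replicate 2 of mip6Δ memory at 0 min, whose labels give 2 different times. Without the latter 76 genes were higher and 69 lower in the main comparison below.

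Between 15 and 20 min, some transcripts of sulfur amino acid synthesis, amino acid synthesis and ribosomal proteins became more abundant, and some of carbon reserves, stress protection, hexose uptake, respiration and histones became less abundant. Of 6172 genes, 96 were higher at 20 min (1.56% of those tested) and 87 were lower (1.41%), by limma on log2(normalized count + 1) with Benjamini-Hochberg adjustment at 0.05. The changes were moderate. Only STR3 and MET6 rose over 2-fold, 16 fell over 2-fold, the median absolute log2 difference of the 183 genes that passed was 0.49, and the median signed difference over all genes was -0.0048. The 3 values at 20 min lay wholly above the 3 at 15 min for 849 genes (13.8%) and wholly below for 609 genes (9.87%), and 179 of the 183 genes were among these. The 4 whose times overlapped were KGD2, OM45, GAS2 and SPG4. With each library scaled to the same sum, 102 genes were higher and 61 lower, so the share of rises went from 52.5% to 62.6%.

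How many genes passed depended strongly on how the replicates were used. In the read counts, samples with the same replicate number deviated together. In the normalized counts this was not borne out for replicate 2. Its 2 times correlated at 0.14, against 0.263 for replicate 3 at 15 min with replicate 2 at 20 min. The replicate pairs below are taken by number from the normalized counts, so they are a description and may not be 3 matched observations. With the culture as a block, edgeR on the read counts of 6038 genes called 159 higher (2.63%) and 123 lower (2.04%). Of these, 171 were among the 183. Without that block edgeR called 6 higher (0.0994%) and 2 lower (0.0331%), with 792 genes at an unadjusted p under 0.05. The 8 genes were SAM1, STR3, VPS62, SER33, DUG3 and MET6, which were higher, and ACH1 and ARO9, which were lower. Leaving out replicate 3 of every group left 0 genes by limma, leaving out replicate 2 left 2 higher and 15 lower, and leaving out replicate 1 gave 215 higher and 167 lower. Of the single libraries, the 20 min replicate 1 mattered most, with 2 higher and 1 lower without it. Without the 15 min replicate 2 the counts were 2 and 4, without the 15 min replicate 3 they were 3 and 5, and without the 20 min replicate 3 they were 12 and 7. Without the 20 min replicate 2 they were 66 and 207. The numbers of list members that passed in other fits, given below, are to be read beside the counts over all genes in those fits.

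**Figure D1:**
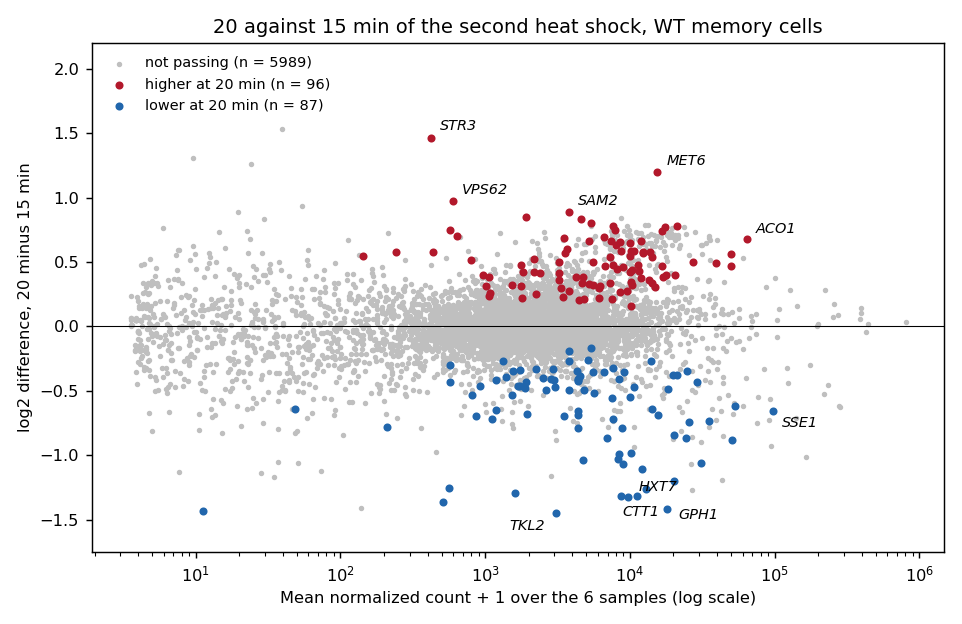
Each point is one of 6172 genes, with its mean normalized count over the 6 samples (log axis, 1 added) against its log2 difference between 20 and 15 min. Red points are the 96 genes that passed the limma test as higher and blue points the 87 that passed as lower; STR3 at 1.47 and TKL2 at -1.45 are the extremes among them.

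The 12 largest falls ran from -1.45 for TKL2 to -1.06 for MSC1, and those of glycogen and stress protection are described first. GPH1, glycogen phosphorylase, stood at 22436, 30547 and 24935 normalized counts at 15 min in replicates 1, 2 and 3. It was down to 6538, 14875 and 9268.5 at 20 min. It fell by 1.41 on the log2 scale (SE 0.33, limma adjusted p = 0.0265, n = 3 per group). CTT1, the cytosolic catalase that removes hydrogen peroxide, stood at 10698, 18882 and 17966 at 15 min. At 20 min it was at 3707.4, 9677 and 6517.1, a fall by 1.32 (SE 0.28, limma adjusted p = 0.0153). For both genes the groups did not overlap and replicate 1 was the lowest at each time. TKL2, the minor transketolase of the pentose phosphate pathway, had 3077.4, 5188.8 and 5035 at 15 min and 951.9, 2688.4 and 1533.5 at 20 min, the largest fall by the naming rule (log2 difference -1.45). At 0 min it had 159.39, 107.9 and 137.89, so it was still far above its level before the shock.

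GPH1 and CTT1 carry STRE matches (AGGGG, or CCCCT on the other strand) upstream, and 200 bases around the densest matches are shown as examples of this element. The windows run 5′ to 3′ on the strand of the gene in the R64 assembly (the same as sacCer3), with matches in capitals: CTT1 chrVII:654166-654365, plus strand, 468 to 269 bases before the start codon, and GPH1 chrXVI:860867-861066, plus strand, 439 to 240 bases before it.
CTT1: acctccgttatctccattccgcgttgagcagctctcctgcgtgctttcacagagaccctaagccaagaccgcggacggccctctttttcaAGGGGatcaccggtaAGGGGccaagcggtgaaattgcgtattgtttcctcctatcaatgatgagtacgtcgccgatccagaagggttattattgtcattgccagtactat
GPH1: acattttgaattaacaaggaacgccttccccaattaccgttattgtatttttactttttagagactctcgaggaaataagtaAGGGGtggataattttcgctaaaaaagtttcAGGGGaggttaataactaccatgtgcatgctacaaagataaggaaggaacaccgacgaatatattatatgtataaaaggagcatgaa
Within 500 bases before the start codon, a match was found for 56 of the 84 protein-coding genes that fell (66.7%), for 24 of the 96 that rose (25%) and for 2015 of all 5902 protein-coding genes tested (34.1%). Matches at 2 or more places were found for 32.1%, 3.12% and 8.13% of the same genes. Such a match is a description of the letters only, and it overlaps with the way the list of Msn2/4 genes was drawn up.

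The other large falls followed the same order of replicates. ALD3, an aldehyde dehydrogenase, went from 18274, 32798 and 31449 to 6791.1, 18080 and 12620 (log2 difference -1.2), and its reads may be shared with ALD2 at 91.9% identity. FMP45, a membrane protein related to eisosome components, went from 12022, 20197 and 17067 to 5218.2, 10695 and 7456.2 (log2 difference -1.11). SPI1, a cell wall protein, went from 13645, 20566 and 20521 to 5506.5, 8830.8 and 8629.7 (log2 difference -1.26). In all of these replicate 1 was the lowest at both times and replicate 2 the highest at 20 min. GID10, a substrate receptor of the GID ubiquitin ligase, had a log2 difference of -1.25, RTN2, a reticulon, one of -1.07, MSC1 one of -1.06 and YNL195C, of unknown function, one of -1.30. Limma adjusted p-values of these 7 genes, in the order ALD3, FMP45, SPI1, GID10, RTN2, MSC1 and YNL195C, were 0.0404, 0.0153, 0.0475, 0.0415, 0.0286, 0.0265 and 0.0243.

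Hexose transporter genes moved in opposite directions. HXT7, a high-affinity glucose transporter, went from 11004, 16789 and 13728 normalized counts to 4345.3, 7097.4 and 5237.1, and fell by 1.32 (SE 0.34, limma adjusted p = 0.0384). HXT6 fell by 1.32 as well, but the 2 genes are 99.8% identical and their reads cannot be assigned with certainty to either. HXT5, a transporter of slow-growing cells, fell by 1.03 (limma adjusted p = 0.0404). HXT1, the low-affinity transporter used at high glucose, went from 3488.6, 3285.1 and 2937 to 7562.3, 4717.9 and 5399.2 and rose by 0.84 (SE 0.18, limma adjusted p = 0.0196). It was then still below its 0 min values of 28366, 26700 and 20043. Of the 17 transporter and sensor genes tested, 1 rose and 3 fell, against 1.56% and 1.41% of all genes, with a list median of -0.0242.

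**Figure D2:**
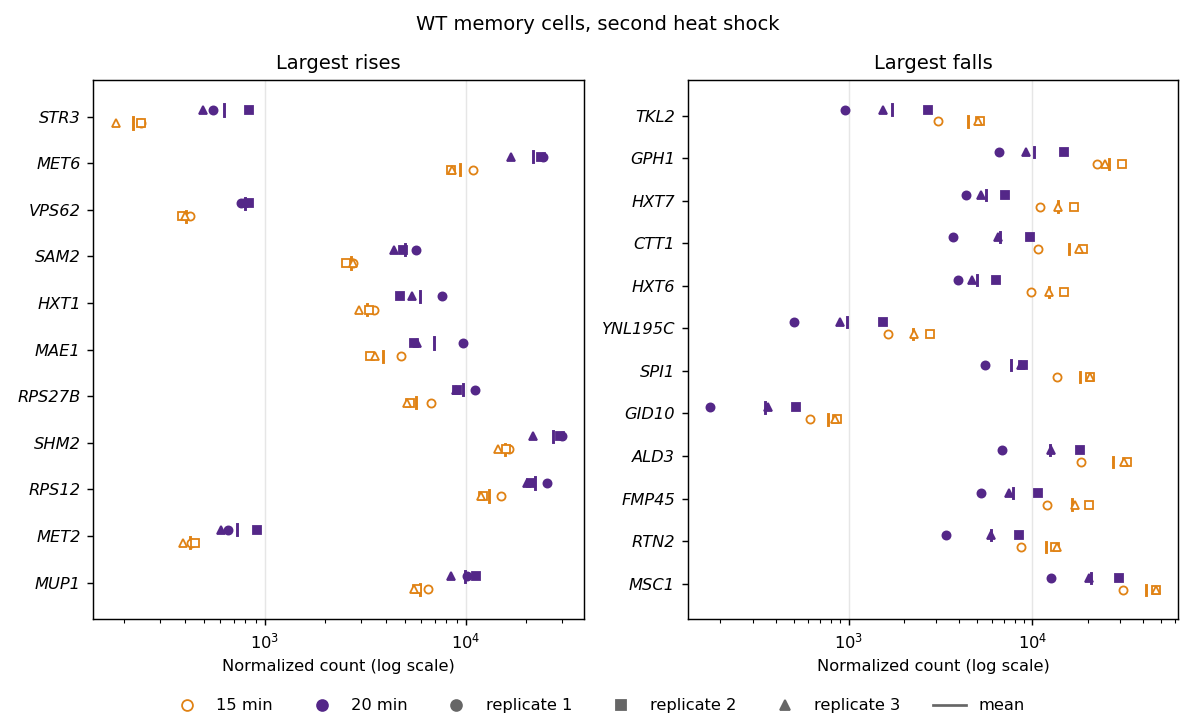
Normalized counts on a log axis of 11 of the 12 genes with the largest rises and the 12 with the largest falls among those that met the naming rule, with 15 min as open orange and 20 min as filled purple symbols, the shape giving the replicate and the bar the mean of 3. The 2 times do not overlap for any of these genes, which the rule required; the values of GPH1 span 6538 to 14875 at 20 min and 22436 to 30547 before.

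The Hsf1-dependent chaperone genes were all lower in the fit at 20 min, but 0 of 17 passed the limma test in either direction, against 1.41% of all genes called lower. Their median log2 difference was -0.71 and their range -1.27 to -0.39. All 17 were lower at 20 min in each of the 3 replicate pairs, as were 24% of all genes. HSP104, the disaggregase, stood at 137610, 223750 and 301370 at 15 min and at 62001, 135960 and 134400 at 20 min (log2 difference -1.01, SE 0.50, limma adjusted p = 0.256). HSP42, a small heat shock protein, stood at 19961, 40733 and 53028 and then at 7731.7, 19036 and 20695 (-1.27, SE 0.56, limma adjusted p = 0.198). In HSP104 the 2 times did not overlap, and in HSP42 they did, as replicate 3 at 20 min was above replicate 1 at 15 min. HSP82, one of the Hsp90 genes, was at 121140, 158920 and 244050 and then at 72064, 111740 and 133330 (-0.71, limma adjusted p = 0.423), and its times overlapped too. It shares 91.8% of its sequence with HSC82.

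The summed level of the 17 chaperone genes was 1407733, 1775436 and 2275831 normalized counts at 15 min and 855674, 1219311 and 1328047 at 20 min. The 0 min library of replicate 1 stood apart in these genes. Without replicate 1 in every group, 11 of the 17 passed the limma test as lower (median -0.69), against 167 of all 6172 genes. Without replicate 2 or 3, 0 of the 17 passed, beside 15 and 0 genes lower over all. With only the 6 samples at 15 and 20 min, which leaves out the 0 min libraries, 0 of the 17 passed (median -0.71). In that fit 44 of all genes were lower. Among the wider set of chaperone genes, SSE1, an Hsp110 nucleotide exchange factor, fell by 0.66 (limma adjusted p = 0.0384). SSA3, an Hsp70, fell by 0.74 (limma adjusted p = 0.0478), and no other member of that list of 19 passed. The share of this list that fell was 10.5%, against 1.41% of all genes. HSP78, the mitochondrial disaggregase and one of the genes the study followed by PCR, had a log2 difference of -0.90 (SE 0.48, limma adjusted p = 0.29). Its upstream window is shown for the heat shock element searched, GAANNTTC, which is its own reverse complement in form: chrIV:974382-974581, minus strand, 338 to 139 bases before the start codon, with the match in capitals.
HSP78: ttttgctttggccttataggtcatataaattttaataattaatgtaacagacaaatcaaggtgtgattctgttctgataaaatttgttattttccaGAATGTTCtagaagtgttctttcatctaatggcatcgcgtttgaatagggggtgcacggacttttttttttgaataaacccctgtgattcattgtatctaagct
The element was found upstream of 11 of the 17 genes (64.7%) and of 19.1% of all protein-coding genes tested. It was found upstream of 21.4% of the genes that fell and of 22.9% of those that rose.

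Some genes driven by Msn2 and Msn4 also came down. Of 42 tested, 8 fell (against 1.41% of all genes), 0 rose and 41 were fitted below 0, with a median log2 difference of -0.49. The 8 were CTT1, SPI1, ALD3, RTN2, MSC1, OM45, GRE3 and TMA17. They encode a catalase, a cell wall protein, an aldehyde dehydrogenase, a reticulon, MSC1 of poorly known function, a mitochondrial outer membrane protein, an aldose reductase and a proteasome assembly chaperone. In 39 of the 42 the difference was negative in all 3 replicate pairs, as in 24% of all genes. The number that passed ran from 0 to 18 over the alternatives. HSP12, a membrane-protective small protein, stayed abundant: it was at 164820, 222350 and 189720 at 15 min and at 116370, 219290 and 146750 at 20 min (log2 difference -0.30, limma adjusted p = 0.609). HSP26, a small heat shock protein, was at 213260, 292260 and 298140 and then at 132780, 255420 and 213230 (-0.45, limma adjusted p = 0.232). For both genes the 2 times overlapped. At 0 min HSP26 had stood at 831.18, 492.27 and 493.57.

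In trehalose and glycogen metabolism, 3 of 19 genes fell, against 1.41% of all genes, and 0 rose, with a median of -0.54. The 3 were GPH1, GDB1 and UGP1, and the number that passed ran from 0 to 8 over the alternatives. GDB1, the glycogen debranching enzyme, went from 11785, 14975 and 13449 to 4734.1, 10050 and 6457.7 (log2 difference -0.98, limma adjusted p = 0.0135). UGP1, which makes UDP-glucose for both polymers, fell by 0.62 (limma adjusted p = 0.0359). Thus GPH1 and GDB1, which act in glycogen breakdown, were among the genes that fell. TPS1, trehalose-6-phosphate synthase, was at 39667, 57804 and 57870 and then at 22782, 44295 and 33751 (-0.65, limma adjusted p = 0.118). TPS2, the phosphatase of the same pathway, had a difference of -0.54 (limma adjusted p = 0.262). Both overlapped between the times. An STRE match was found upstream of 78.9% of the 19 genes.

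Of the genes the study followed by PCR, 2 of the 8 tested fell, CTT1 and FAA1, against 1.41% of all genes. FAA1, a long-chain fatty acyl-CoA synthetase, went from 22222, 24621 and 24814 to 16342, 20547 and 18382 (log2 difference -0.38, SE 0.10, limma adjusted p = 0.0384). ACC1, acetyl-CoA carboxylase, differed by 0.06 (95% interval -0.10 to 0.23, limma adjusted p = 0.685). SCR1, the RNA of the signal recognition particle, had read counts only: 38.12, 125.3 and 63.38 CPM at 15 min and 27.99, 74.05 and 47.86 at 20 min (edgeR with replicate block, log2 difference -0.57, adjusted p = 0.316).

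The largest rises were in sulfur amino acid metabolism. In this pathway STR3 makes homocysteine from cystathionine, MET6 methylates homocysteine to methionine, SAM1 and SAM2 make S-adenosylmethionine, and MUP1 and MUP3 import methionine. The BY4741 cells lack MET15 and so cannot fix sulfide into homocysteine in the usual way. STR3 went from 240.75, 243.27 and 181.22 normalized counts to 552.34, 830.27 and 493.25, a rise of 1.47 on the log2 scale (2.77-fold, SE 0.29, limma adjusted p = 0.012). MET6 went from 10873, 8463.5 and 8541.8 to 24134, 23705 and 16722, a rise of 1.2 (2.3-fold, SE 0.24, limma adjusted p = 0.012). SAM2 went from 2736, 2520.7 and 2752.9 to 5633.4, 4842.4 and 4399, a rise of 0.89 (limma adjusted p = 0.012). In all 3 genes the lowest replicate at 20 min was well above the highest at 15 min, and replicate 3 was the lowest at 20 min.

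MUP1, the high-affinity permease, went from 6511.9, 5691.6 and 5508.8 to 10175, 11189 and 8471.2 (log2 difference 0.75, limma adjusted p = 0.0286). MET2, which acetylates homoserine, went from 426.84, 447.93 and 393.29 to 655.53, 912.57 and 603.82 (0.75, limma adjusted p = 0.0384), with 0 min values of 785.21, 694.13 and 710.64. Over the list, 8 of 34 genes rose, against 1.56% of all genes, and 0 fell, with a median of 0.23. The number that passed ran from 0 to 10 over the alternatives. In all 3 replicate pairs 26 of the 34 were higher, as were 26.4% of all genes. The other 3 that rose were MUP3, MET1 and MET30, a permease, an enzyme of siroheme synthesis and an F-box protein that restrains the pathway. The sulfate assimilation enzymes MET3, MET14 and MET16 differed by 0.16, 0.29 and 0.06 and did not pass (limma adjusted p = 0.44, 0.115 and 0.737).

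The upstream windows of MET6 and SAM2 are shown for CACGTG, the core that Cbf1 of the sulfur pathway and Pho4 of the phosphate pathway both bind. MET6 lies at chrV:342468-342667, minus strand, 500 to 301 bases before its start codon, and SAM2 at chrIV:1454685-1454884, minus strand, 420 to 221 bases before it, with the match in capitals.
MET6: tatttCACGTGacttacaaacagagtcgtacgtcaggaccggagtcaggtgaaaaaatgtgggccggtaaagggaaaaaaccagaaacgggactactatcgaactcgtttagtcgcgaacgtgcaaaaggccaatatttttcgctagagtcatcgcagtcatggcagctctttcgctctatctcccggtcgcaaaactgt
SAM2: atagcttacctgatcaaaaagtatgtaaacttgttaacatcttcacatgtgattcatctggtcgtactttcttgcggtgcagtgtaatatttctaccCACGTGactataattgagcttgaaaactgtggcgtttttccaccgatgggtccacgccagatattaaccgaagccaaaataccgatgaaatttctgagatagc
This core was found upstream of 21 of the 34 sulfur genes (61.8%) and of 6.24% of all protein-coding genes tested. It lay upstream of 17.7% of the genes that rose and of 10.7% of those that fell. It was found upstream of 15 of 22 phosphate genes (68.2%). Of those 22 genes, 5 rose, against 1.56% of all genes, and 0 fell, with a median of 0.27. The count was 2 with equal medians and 2 without the mip6Δ library of unlike labels. It was 1 with the flask as a replicate block, and 0 without the trend, without replicate 2 or 3, or without any single one of the 6 libraries other than the 15 min replicate 1. VTC1, VTC3 and VTC4, subunits of the vacuolar polyphosphate polymerase, rose by 0.33, 0.47 and 0.40 (limma adjusted p = 0.0404, 0.0496 and 0.0478). PHM6 and PHO86 rose by 0.58 and 0.21 (limma adjusted p = 0.0456 and 0.0487).

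Some genes for other amino acids rose too: 11 of 68 rose, against 1.56% of all genes, 1 fell and the median was 0.19. Over the alternatives the number that passed in either direction ran from 0 to 17. SHM2, the cytosolic serine hydroxymethyltransferase of one-carbon metabolism, went from 16458, 15856 and 14363 to 29978, 29235 and 21663 (log2 difference 0.78, limma adjusted p = 0.0428). ARG1, argininosuccinate synthetase, went from 3102.9, 2704.6 and 2975.9 to 4730.6, 4391.8 and 4176.5 (0.60, limma adjusted p = 0.012), above its 0 min values of 3532.3, 2262.7 and 2196.1. LYS4, homoaconitase, rose by 0.52 (limma adjusted p = 0.0427). ARO9, an aromatic aminotransferase that breaks these amino acids down, was the gene that fell, from 30047, 33668 and 30315 to 16371, 18530 and 16660 (-0.87, limma adjusted p = 0.012). Of 30 nitrogen and permease genes 3 fell, against 1.41% of all genes, and 0 rose. Among them the arginine-degrading enzymes came down: CAR2 fell by 0.64 and CAR1 fell by 0.49 (limma adjusted p = 0.0207 and 0.0177).

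TGACTC is the core bound by Gcn4, the activator of amino acid genes. The core, counted on both strands, was found upstream of 43 of the 68 amino acid genes (63.2%), of 28.1% of the genes that rose, of 10.7% of those that fell and of 12.6% of all protein-coding genes tested.

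Some mitochondrial enzyme genes rose. ACO1, aconitase, went from 50629, 46425 and 50999 to 82618, 80931 and 73976 (log2 difference 0.68, limma adjusted p = 0.012). IDH1, a subunit of isocitrate dehydrogenase, rose by 0.50 (limma adjusted p = 0.0359). IDH1 had been at 13351, 19698 and 12151 at 0 min and was already higher in each replicate at 15 min. Of the 35 genes of the glyoxylate cycle, gluconeogenesis and peroxisome, 1 rose and 3 fell, against 1.56% and 1.41% of all genes. ACO1 was the 1 that rose. MDH1, a malate dehydrogenase, and the carnitine acetyltransferase genes CAT2 and YAT2 fell by 0.55, fell by 0.46 and fell by 0.33. MAE1, malic enzyme, rose by 0.81 (limma adjusted p = 0.0478). VPS62, named for vacuolar protein sorting, had a small standard error for a large rise, with 423.17, 386.05 and 401.15 at 15 min and 757, 837.45 and 785 at 20 min (0.97, SE 0.13, limma adjusted p = 0.000121).

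Ribosomal protein genes were fitted higher by similar amounts across the family. Of 134 tested, 20 passed as higher and 0 as lower, which is 14.9% against 1.56% of all genes. The median log2 difference was 0.66, 133 were fitted above 0, and the 3 values at 20 min lay wholly above those at 15 min for 130, against 13.8% of all genes. RPS12 went from 14933, 12206 and 11832 to 25184, 21078 and 20164 (0.77, limma adjusted p = 0.0384). RPS27B went from 6675.9, 5252.3 and 5069.1 to 11124, 9062 and 8945.7 (0.78, limma adjusted p = 0.0485). RPL7A, whose span also holds the small nucleolar RNA gene SNR39, rose by 0.74 (limma adjusted p = 0.0485). The family summed to 1559444, 1283526 and 1278609 normalized counts at 15 min, 2294013, 2117098 and 1995061 at 20 min, and 4582656, 6299635 and 5200033 at 0 min. Thus all 3 sums at 20 min were above the 15 min sums and below the 0 min sums.

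How many of the family passed moved with the fit. With the culture as a replicate block 38 of the 134 passed by limma, beside 127 higher and 117 lower over all 6172 genes. When only the 6 samples were fitted 120 passed, beside 166 higher and 44 lower over all genes. Without replicate 1 it was 107 of the 134, beside 215 higher and 167 lower over all genes. Without replicate 2 it was 0, beside 2 higher and 15 lower over all genes. Without replicate 3 it was 0, as it was over all genes. The medians of the family without a replicate ran from 0.60 to 0.71. Ribosome assembly genes were fitted above 0 in 145 of 146 cases with a median of 0.28, but 0 passed in either direction. They were higher in all 3 pairs in 127 cases (87%, against 26.4% of all genes). The PAC core GATGAG was found upstream of 90.4% of them and of 28.3% of all protein-coding genes tested. Among translation factors 3 of 39 rose and 1 fell, against 1.56% and 1.41% of all genes. EFT1 and EFT2 encode the same elongation factor 2 and are 99.8% identical, so that their rises of 0.50 and 0.57 are not separable. HEF3, a second copy of elongation factor 3, fell by 0.46 (limma adjusted p = 0.0457).

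**Figure D3:**
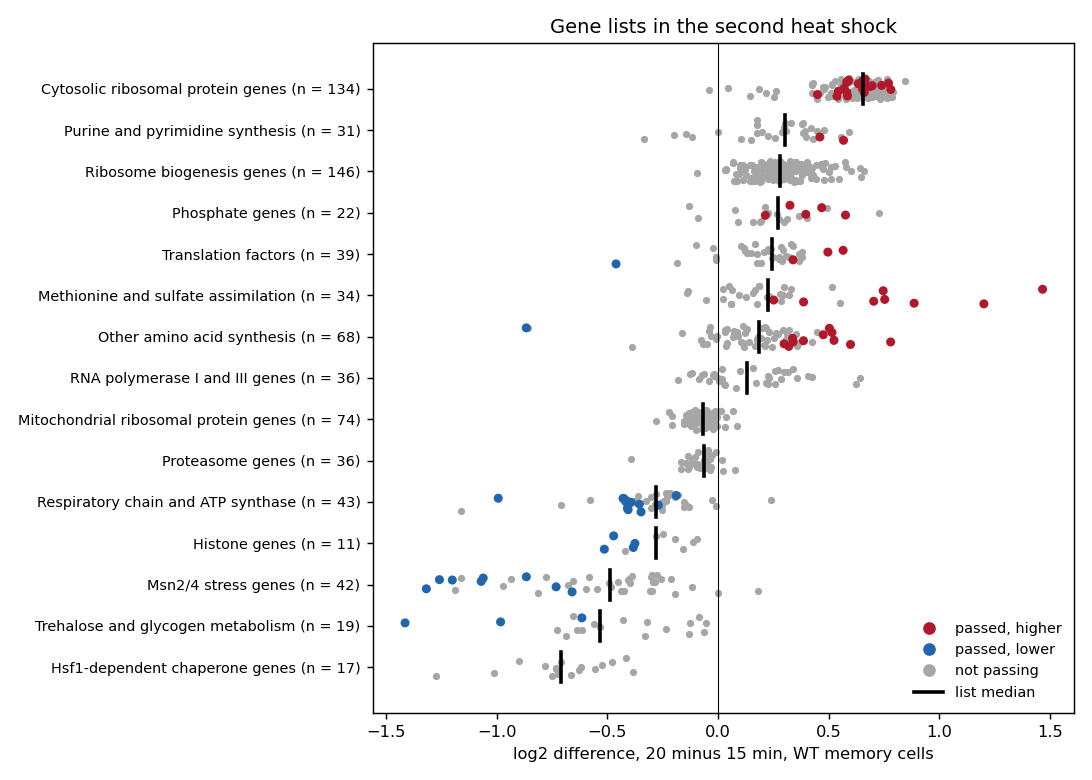
Log2 differences between 20 and 15 min of the members of 15 gene lists, one point per gene, with red and blue for genes that passed the limma test as higher or lower, grey for the rest and a black bar for the list median. The lists run from a median of -0.71 for the 17 Hsf1-dependent chaperone genes, none of which passed, to 0.66 for the 134 ribosomal protein genes.

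Part of the nuclear genes of the respiratory chain and ATP synthase fell, by mostly small amounts. Of 43 tested, 13 fell and 0 rose, which is 30.2% against 1.41% of all genes, and the median was -0.28. The number that passed ran from 0 to 22 over the alternatives and was 5 with equal library sums. STF2, a stabilising factor of the ATP synthase inhibitor, fell by 0.99 (limma adjusted p = 0.0485) from 8658.5, 11909 and 12651 to 3557.6, 7826.5 and 5931.9. ATP2, the β subunit of the ATP synthase, went from 32215, 34713 and 33548 to 23409, 26946 and 24343 (log2 difference -0.43, SE 0.07, limma adjusted p = 0.00291), with 0 min values of 26676, 25758 and 26478. COR1, a core subunit of complex III, went from 8777.6, 9716.9 and 10173 to 6677, 7863.1 and 7050.8 (-0.41, limma adjusted p = 0.0257). QCR7 of the same complex fell by 0.43 (limma adjusted p = 0.0448). Mitochondrial ribosomal protein genes gave 0 of 74 in either direction, with a median of -0.0661. The CCAAT box, bound by the Hap2/3/4/5 complex, was found upstream of 90.7% of the 43 genes and of 62.4% of all protein-coding genes tested.

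Some core histone genes fell. Of 11 histone genes 4 fell, against 1.41% of all genes, and 0 rose, with a median of -0.28. Over the alternatives the number that passed ran from 0 to 6. HHF2, histone H4, went from 13232, 10867 and 13123 to 8580.9, 9388.7 and 8778.8 (log2 difference -0.47, limma adjusted p = 0.012), from 19732, 21615 and 21732 at 0 min. HHT2, histone H3, went from 22499, 22113 and 23066 to 16292, 18447 and 17482 (-0.38, limma adjusted p = 0.0144). HTA2 (H2A) fell by 0.38 and HHF1 (H4) fell by 0.51 (limma adjusted p = 0.03 and 0.0429). Each of these 4 has a near-identical copy, with 97.4% identity between HHF1 and HHF2, so the share of each copy is uncertain. Among cyclins and cell cycle regulators 1 of 33 genes fell, PCL9, against 1.41% of all genes, and 0 rose.

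The remaining lists gave few genes, to be read against 1.56% of all genes higher and 1.41% lower. In purine and pyrimidine synthesis ADE6 and MTD1, of purine and one-carbon metabolism, rose by 0.46 and 0.57 (2 of 31, median 0.30). In the iron regulon 3 of 28 fell and 0 rose: TIS11, an mRNA-destabilising protein, fell by 0.65, HMX1, heme oxygenase, fell by 0.47 and CCC2, a copper transporter, fell by 0.47. Of 20 eisosome and membrane genes FMP45 and PIL1 fell, the latter a core eisosome protein with a log2 difference of -0.35. In the endoplasmic reticulum list CNE1, calnexin, and MNL1 rose by 0.22 and 0.42 (2 of 31). The regulators PHD1 and IRA2 fell by 0.68 and fell by 0.56, as the single members that passed of 30 stress regulators and 23 Ras pathway genes. No gene passed in either direction among 36 proteasome, 29 ubiquitin, 32 glycolysis, 31 ergosterol, 36 RNA polymerase I and III, and 30 autophagy and vacuole genes. Their medians were -0.0648, -0.094, -0.0089, 0.12, 0.13 and -0.16.

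Noncoding transcripts were few among the genes that passed. RDN37-2, the ribosomal RNA precursor, went from 38255, 95292 and 66569 to 36084, 29399 and 36808 (log2 difference -0.88, limma adjusted p = 0.0485). It has an identical copy in RDN37-1 and overlaps the mature ribosomal RNA genes. Its highest values, in replicates 2 and 3 at 15 min, were in the libraries with the largest shares of ribosomal RNA reads, 1.93% and 0.765%, and the part of these shares in the result was not tested. SNR63, a small nucleolar RNA, went from 247.62, 314.13 and 230.58 to 168.46, 147.26 and 141.52 (-0.78, limma adjusted p = 0.012). SRG1, whose span reaches into SER3, was the third.

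The read count table held 231 genes that the normalized table did not, and 45 of these were tested by edgeR with the replicate block. Of the 45, 5 rose and 3 fell, against 2.63% and 2.04% of all genes tested in that way. SAM1, the second S-adenosylmethionine synthetase gene, went from 70.67, 66.53 and 62.26 CPM to 193.6, 158.5 and 154.8 (log2 difference 1.34, edgeR adjusted p = 0.00446). MMP1, a high-affinity permease for S-methylmethionine, rose by 0.78 (edgeR adjusted p = 0.0274). KAP123, an importin of ribosomal proteins, rose by 0.75 and RPS0A, a ribosomal protein gene, by 0.81 (edgeR adjusted p = 0.0281 and 0.0469). The fifth, YMR230W-A, stayed under 1 CPM at both times (log2 difference 2.02, edgeR adjusted p = 0.0215). HSP30, a stress protein of the plasma membrane, fell from 125.7, 380.6 and 411.5 to 40.85, 114.4 and 103.9 (edgeR adjusted p = 0.0401). RGI1, involved in energy metabolism, fell by 1.28, and YNL194C, related to FMP45, fell by 1.39 (edgeR adjusted p = 0.0279 and 0.0456). SSA4, the strongly heat-inducible Hsp70, stood at 5969, 8558 and 8463 at 15 min and at 1756, 4261 and 3265 at 20 min, without overlap (log2 difference -1.31, edgeR adjusted p = 0.208).

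The genes were next grouped by their change in a first heat shock, taken from WT no-memory samples at 15 and 0 min, which are none of the 6 samples. Memory and no-memory flasks came from split cultures in the study, so these are not independent cultures. Of 746 genes that were over 2-fold higher at 15 min of the first shock, 49 fell between 15 and 20 min of the second shock (6.57%) and 2 rose (0.268%). Of 873 genes that were over 2-fold lower in the first shock, 61 rose (6.99%) and 5 fell (0.573%). Among the other 4553 genes 33 rose and 33 fell, 0.725% in each direction. The median log2 differences of the 3 groups were -0.22, 0.28 and -0.012. In the fit, 86.3% of the first group lay below 0 and 90.5% of the second above 0. The opposite movement was partial. Relative to 0 min of the second shock, the first group had a median of 1.31 at 15 min and 1.14 at 20 min, and the second group -1.07 and -0.83.

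**Figure D4:**
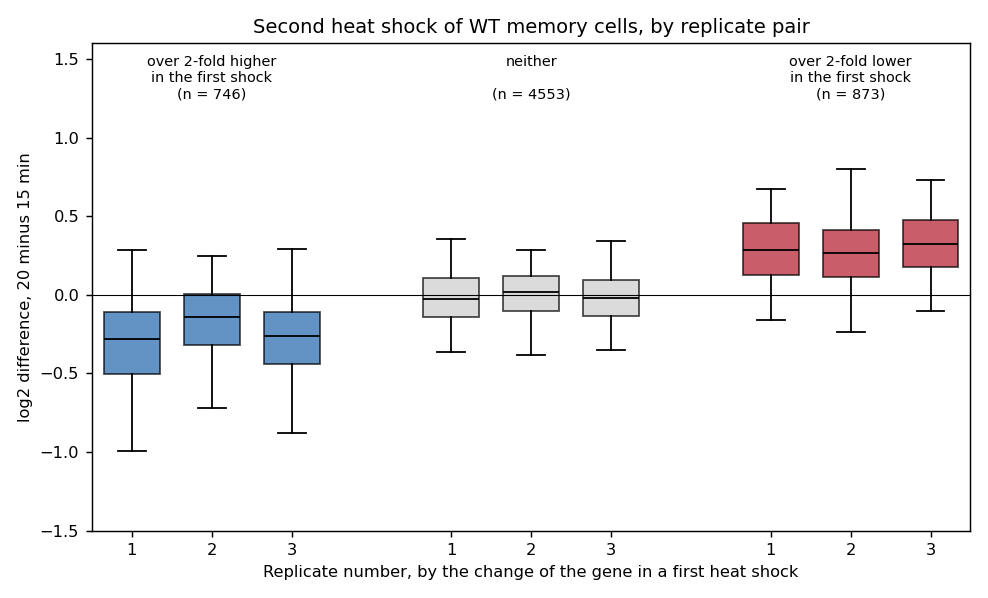
Log2 difference between 20 and 15 min of the second shock within each of the 3 replicate numbers, for genes grouped by their change at 15 min of a first shock in no-memory cells. Boxes span the quartiles with the median as a line and whiskers reach the 5th and 95th percentiles; medians were -0.28, -0.14 and -0.26 for the 746 heat-induced genes and 0.28, 0.27 and 0.32 for the 873 heat-repressed genes.

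The same 5 min were compared in no-memory cells, to ask whether a previous shock altered them. In WT no-memory cells 483 genes were higher at 20 min (7.83%) and 144 lower (2.33%), and this split turned with the scaling. It was 753 and 66 with equal library sums and 280 and 330 with equal library medians, or 91.9% and 45.9% higher against 77%. All 96 genes that rose in memory cells and 83 of the 87 that fell had the same sign in no-memory cells. The 2 comparisons share no sample, but their flasks came from split cultures and are not independent. Across all 6172 genes, which are not independent replicates, Pearson's r between the 2 sets of differences was 0.57 and the sign was the same for 68.3%. The test of the difference between the 2 changes gave 0 genes by limma at an adjusted p under 0.05, with 422 at an unadjusted p under 0.05. EdgeR gave 0 genes with and without the block (416 and 185 unadjusted). For CTT1 the difference, memory minus no-memory, was -0.38 with a 95% interval from -1.18 to 0.43, for MET6 it was -0.38 from -1.08 to 0.33, and for TKL2 -0.91 from -1.76 to -0.05 (adjusted p = 0.716). These intervals leave room for sizeable differences.

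The lowest p-values in that test belonged to RPL41B, RPL41A, PBA1 and SNR32. RPL41B, a small ribosomal protein gene, had 1607.3, 1677.1 and 1505.3 at 15 min and 1873, 1684 and 1887.4 at 20 min in memory cells, whereas in no-memory cells it had 1079.5, 1358.3 and 1281.9 and then 874.85, 700.48 and 648.69 (difference of the changes 0.93, limma adjusted p = 0.0758). RPL41A gave 0.61 (limma adjusted p = 0.085). The no-memory values at 20 min lay wholly below those at 15 min in RPL41B, and the 2 genes encode the same protein, so the split of reads between them is uncertain. The difference for PBA1, a proteasome assembly chaperone, was -0.37 and for SNR32, a small nucleolar RNA, -1.88 (limma adjusted p = 0.0884 for both). With library medians set equal, RPL41A and RPL41B passed (limma adjusted p = 0.0157).

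By list, the medians in memory and no-memory cells were 0.66 and 0.66 for ribosomal protein genes, 0.23 and 0.29 for sulfur genes, and -0.28 and -0.31 for respiration. They were 0.28 and 0.58 for ribosome assembly genes, -0.49 and -0.29 for Msn2/4 genes and -0.71 and -0.42 for Hsf1-dependent chaperone genes. Ribosome assembly gave 48 of 146 genes higher in no-memory cells, against 7.83% of all genes there, and 0 in memory cells, against 1.56%. The no-memory count over all genes also moved with the scaling, as given above. No gene of this list passed the test of the difference.

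The same 5 min were then compared in cells without MIP6. In mip6Δ memory cells 75 genes were higher at 20 min (1.22%) and 104 lower (1.69%), a split that went to 181 and 68 with equal library sums and to 56 and 123 with equal medians (72.7% and 31.3% higher against 41.9%). Of the 183 WT genes, 181 had the same sign in mip6Δ, and across all genes Pearson's r was 0.77 and the sign was the same for 76.7%. The test of the strain difference gave 0 genes by limma, with 75 at an unadjusted p under 0.05 and a smallest adjusted p of 1. EdgeR gave 0 as well, with 24 unadjusted and 76 with the block. The lowest p-values were those of ADK2, an adenylate kinase (difference of the changes, mip6Δ minus WT, 0.34), SET2, a histone methyltransferase (0.22), YDR102C (-1.08) and EMC6, of the ER membrane complex (-0.35). ADK2 had passed in WT as lower and EMC6 as higher. MET6 differed by 1.2 in WT and 1.21 in mip6Δ, and CTT1 by -1.32 and -1.17.

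**Figure D5:**
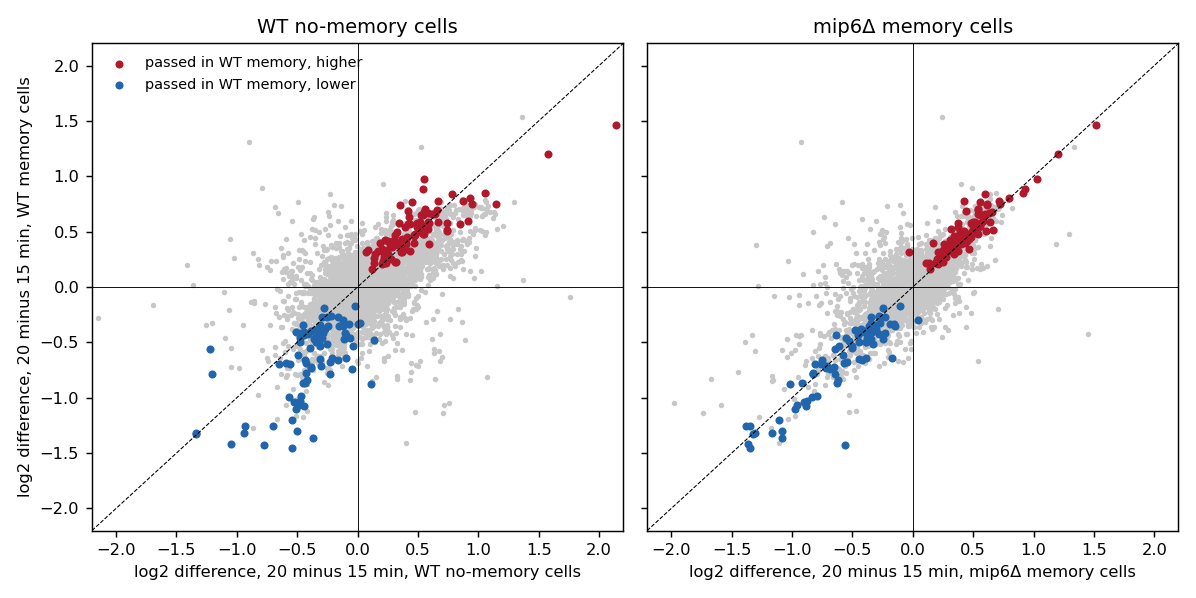
Log2 difference between 20 and 15 min of each gene in WT memory cells against the same in WT no-memory cells (left) and in mip6Δ memory cells (right), with genes that passed in WT memory cells in red and blue and the dashed line marking equal values. The axes span ±2.2 and leave out 2 genes on the left; the points follow the line more closely on the right (r = 0.77) than on the left (r = 0.57).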

How the data were processed

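The authors trimmed reads with Trimmomatic, aligned them to sacCer3 with HISAT2, and obtained read counts per gene with StringTie, after FastQC checks, as given in the study's methods and submitters' notes. They filtered at 1 CPM and normalized with NOISeq (TMM), then removed hidden batch effects with ARSyN. Whether the groups were given to that step is not given in the sources used here. The deposited normalized counts are a linear signal for 6172 genes, and the deposited read counts cover 6403 genes. Removal of hidden batches can narrow the spread among replicates, and edgeR was run on the read counts for that reason.

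Differences were fitted by limma 3.58.1 (R 4.3.3) with an intensity trend on log2(normalized count + 1), over 12 groups and 36 samples with 24 residual degrees of freedom, so a fold is understated for low genes. P-values were adjusted over all 6172 genes. Alternatives used edgeR 4.0.16 (quasi-likelihood, TMM), DESeq2 1.42.0, other pseudocounts, filters and scalings, replicate blocks and left-out samples. The limma and edgeR tests were run on simulated data first. Replicates are named as biological in the study. Same-numbered samples at 15 and 20 min correlated in their deviations from the group means (r = 0.505, 0.14 and 0.31 for replicates 1 to 3). For unlike numbers r ran from -0.417 to 0.263. The highest, replicate 3 at 15 min with replicate 2 at 20 min, was above the 0.14 of replicate 2. These values therefore do not bear out the pairing of replicate 2. In the read counts r was 0.573, 0.392 and 0.285 for like numbers and at most 0.083 for unlike ones.

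The genes named are the 12 largest differences in each direction among genes with an adjusted p under 0.05, a mean normalized count of at least 20, no overlap between the groups and the same sign in edgeR. One of these genes and an upstream sequence are not reported here. To these were added up to 3 in each direction per list, the genes followed by PCR and those of lowest p in the tests of differences. The lists and named genes were chosen with earlier results of these data known, and so were the motifs. COR1, IDH1, MET3, MET14, MET16, SNR63, RDN37-2, SRG1, the genes whose times overlapped and those measured in the read counts only were named after their values were seen. Upstream windows came from the RefSeq R64 genome, whose gene starts are start codons. Genes at 90% identity over at least 50% of their length (blastn 2.17.0) were taken as near-identical copies. The strand setting of the counting is not given in the sources used here.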

Additional observations from a re-analysis of the deposited data

How the results depend on the processing

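All 24 genes with the largest changes kept their direction under every alternative. The rule for naming them required no overlap between the times and the same sign in edgeR. That rule largely fixed the direction in advance, so the direction is no measure of stability. The call was kept in 424 of 736 combinations of gene and alternative. In the order higher and lower, the counts of genes that moved by over 1.5 times were as follows. Fitting only the groups compared gave 166 and 44 in WT memory cells, 73 and 21 in WT no-memory cells and 353 and 280 in mip6Δ memory cells. Limma without its trend gave 51 and 52 in WT memory cells. Equal sums gave 753 and 66 in no-memory and 181 and 68 in mip6Δ cells. Equal medians gave 280 and 330 in no-memory cells and 2 genes for the memory effect. EdgeR without a block gave 6 and 2 in WT memory, 68 and 14 in no-memory and 6 and 5 in mip6Δ cells. Without the filter it gave 6 and 3, 32 and 14, and 7 and 6, and with DESeq2 size factors 4 and 4, 58 and 16, and 5 and 6. DESeq2 gave 227 and 74 in no-memory and 23 and 64 in mip6Δ cells. For the replicate block, limma gave 127 and 117 genes in WT memory cells by culture and 106 and 102 by flask. EdgeR gave 159 higher with the replicate block by culture and 150 by flask. The flask block gave 1 gene for the memory effect, SNR8, by limma and by edgeR.

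Leaving out a replicate or a single library gave 0 to 215 higher and 0 to 207 lower in WT memory cells, 8 to 497 and 4 to 149 in no-memory cells, and 0 to 83 and 0 to 118 in mip6Δ cells. The memory effect ran from 0 to 2 genes (RPL41B and RPS26A without replicate 1) and the strain effect stayed at 0. Fits with the replicate block and without 1 replicate were chosen after seeing the data. By limma without replicates 1, 2 and 3 in turn they gave 170, 7 and 0 higher and 143, 64 and 0 lower in WT memory cells. They gave 221, 63 and 18 higher in no-memory cells, with 23 and 5 lower without replicates 2 and 3, and 30, 10 and 1 higher in mip6Δ cells, with 36 and 0 lower. By edgeR they gave 192, 10 and 0 higher and 163, 66 and 0 lower in WT memory cells, 197, 27 and 7 higher in no-memory cells (12 and 5 lower without replicates 2 and 3), and 31, 12 and 1 higher in mip6Δ cells (38 and 0 lower).

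The medians of the 10 main gene lists kept their sign under all 31 alternatives, from -0.93 to -0.47 for Hsf1-dependent chaperone genes and from 0.60 to 0.75 for ribosomal protein genes. All alternatives drew on the same samples, and limma without its trend or with a replicate block left these medians unchanged. The lists were chosen with earlier results of these data known, so the kept sign is no measure of stability. The cause of the shifts in counts was not tested. With 3 samples per group, omitting a replicate leaves 2 per time. Keeping only genes with a mean normalized count of at least 20 gave 96 higher and 86 lower in WT memory cells.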

Other observations

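Some genes for the ligases that charge transfer RNA also rose. This group was written down after the genes that passed had been seen, so its count is a description. Of 21 cytosolic ligase genes tested, 9 rose (against 1.56% of all genes) and 0 fell between 15 and 20 min of the second shock, all 21 were fitted above 0 and the median log2 difference was 0.36. The 9 ran from 0.31 to 0.54 and were FRS1, WRS1, GRS1, GLN4, VAS1, SES1, YDR341C, CDC60 and DED81, for phenylalanine, tryptophan, glycine, glutamine, valine, serine, arginine, leucine and asparagine. The medians of the 21 genes were 0.33 in WT no-memory cells and 0.31 in mip6Δ memory cells.

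VPS62 and BTN2, neighbours on the same strand of chromosome VII, went opposite ways. VPS62 rose by 0.97 on the log2 scale. BTN2, a chaperone gene that sorts misfolded proteins, was measured in the read counts only, at 270.3, 287.4 and 342.8 CPM at 15 min and 97.89, 120.9 and 108.7 at 20 min, without overlap (edgeR with replicate block, log2 difference -1.5, adjusted p = 0.161). At 0 min of the second shock BTN2 stood at 1132, 116 and 29.2 in replicates 1, 2 and 3, and SSA4 at 746.4, 79.26 and 57.24, so that replicate 1 was again the highest.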
